A study of Mus musculus with 34 samples.

Results

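The genes described here encode 9 components and regulators of the complement system, namely C2, C3, C4b, C7, Cfb, Cfd, Cd55, Cd59a and Serping1. They were taken by name, with earlier results of these data known, from 51826 gene identifiers counted in the series, and all 9 were found. All 9 also passed the filter on low counts that left 25705 genes to test. The study sequenced polyadenylated RNA of sorted mouse stromal cells from several tissues, which allows their transcription to be compared by tissue and by cell type. All 34 libraries share a gate, being podoplanin-positive cells without CD45, CD31 or Epcam, and all carry the label GFP negative. Mesothelial cells, the lining of the body cavities, were PDGFRA-negative and came from omentum, mesentery and epididymal fat, with 3 libraries each. Fibroblasts were PDGFRA-positive and came from the same 3 fat depots and from inguinal fat, brown adipose tissue, bone and lymph node, with 3 libraries each, and from pancreas and spleen, with 2 each. By their labels the first 3 of these tissues are visceral fat, while inguinal fat and brown adipose tissue are subcutaneous. Treatment, genotype, strain, sex and age are not given in the sources used here, nor is the origin of replicates in separate animals, so each p-value reflects the spread among these libraries alone, which may be technical.

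Complement is a cascade of secreted proteins that tags surfaces for uptake, attracts leukocytes and can pierce membranes. In its classical and lectin routes C4 and the protease C2 form the enzyme that cleaves C3, the protein on which all routes converge. In the alternative route factor B (Cfb) takes the place of C2 after it has been cut by factor D (Cfd), which is known in mice as adipsin, a product of fat cells. C7 is a subunit of the membrane attack complex that forms downstream of C3. The C1 inhibitor (Serping1) blocks the proteases that start the classical and lectin routes, decay-accelerating factor (Cd55) dismantles the C3-cleaving enzymes on cell surfaces, and Cd59a stops the attack complex from closing. Liver makes most of the complement in plasma, and fibroblasts and other stromal cells are known to make many of these proteins locally.

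Several members lie close together or have near-identical copies. C2 (ENSMUSG00000024371, chromosome 17, 34862604 to 34898265, minus strand) and Cfb (ENSMUSG00000090231, chromosome 17, 34856374 to 34862518, minus strand) are neighbours on the same strand with 85 bases between them in the GENCODE M21 annotation of GRCm38. C4b (ENSMUSG00000073418, chromosome 17, 34728380 to 34743882, minus strand) lies on that chromosome too, and its copy C4a starts 65209 bases beyond it. Over the 5207 coding bases of C4b that aligned to the C4a transcript the copies are 96.1% identical, so the authors' counting could have divided reads between them. C4a held 1282 counts over all libraries, against 1339695 for C4b. A stretch of 90 bases with 14 differences is shown because only reads over such places can tell the copies apart. It covers coding bases 2677 to 2766 of C4b, counted from 1 at the start codon, read from the GENCODE M21 transcripts with differing bases in capitals.
C4b: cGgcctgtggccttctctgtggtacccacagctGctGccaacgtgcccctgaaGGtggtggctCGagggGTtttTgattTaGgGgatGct
C4a: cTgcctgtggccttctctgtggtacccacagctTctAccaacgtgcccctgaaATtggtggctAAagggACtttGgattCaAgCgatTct
Cd55 is 93.0% identical to Cd55b over 1130 aligned coding bases and Cd59a 83.3% identical to Cd59b over 348. Adding each copy's counts to its member before the fit changed none of the members' 180 calls and non-calls. Such a sum could hardly move C4b or Cd55, since Cd55b too held only 84 counts, against 365138 for Cd55. Nor could it restore reads that the counting may have dropped, so the division of reads between copies was not tested. Gm20547, a gene annotated across both on the same strand, overlaps 42.8% of the exon bases of C2 and 79.5% of those of Cfb, and held 622 counts in all. On the opposite strand Zbtb12 overlaps 4.16% of the exon bases of C2 and Gm16083 2.1% of those of Cd55, with 103 and 379 counts. C3 (ENSMUSG00000024164, chromosome 17, 57203970 to 57228136, minus strand), C7 (ENSMUSG00000079105, chromosome 15, 4988762 to 5063740, minus strand), Cfd (ENSMUSG00000061780, chromosome 10, 79890853 to 79892655, plus strand), Serping1 (ENSMUSG00000023224, chromosome 2, 84765387 to 84775444, minus strand), Cd55 (ENSMUSG00000026399, chromosome 1, 130439027 to 130462744, minus strand) and Cd59a (ENSMUSG00000032679, chromosome 2, 104095801 to 104115354, plus strand) are protein-coding genes of the same annotation.

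Upstream sequence was matched by symbol in a RefSeq promoter table of build GRCm38.p6 for 5 of the 9 members. It is shown for 3 of them, for C3 because it had the highest level of the members and for Cd55 and Cd59a because these surface regulators moved in opposite directions in the comparison of cell types. Each run is the 250 bases before the annotated start, 5′ to 3′ on the gene's strand, at chr17:57228137-57228386, minus strand for C3, chr1:130462745-130462994, minus strand for Cd55 and chr2:104095551-104095800, plus strand for Cd59a. Capitals mark matches on either strand to motif letters. For NF-kB the letters searched were GGGA followed, after 4 free bases, by CC. For the interferon response element they were GAAA, occurring again after 2 free bases. The others were TTGCNNAA for C/EBP, TTCNNNGAA for STAT, GGGCGG for the GC box and TATAAA for the TATA box.
C3: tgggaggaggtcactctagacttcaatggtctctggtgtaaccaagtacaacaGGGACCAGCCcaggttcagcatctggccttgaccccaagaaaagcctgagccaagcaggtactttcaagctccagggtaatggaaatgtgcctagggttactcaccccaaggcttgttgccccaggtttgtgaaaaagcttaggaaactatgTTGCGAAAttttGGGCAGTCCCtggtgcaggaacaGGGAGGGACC
Cd55: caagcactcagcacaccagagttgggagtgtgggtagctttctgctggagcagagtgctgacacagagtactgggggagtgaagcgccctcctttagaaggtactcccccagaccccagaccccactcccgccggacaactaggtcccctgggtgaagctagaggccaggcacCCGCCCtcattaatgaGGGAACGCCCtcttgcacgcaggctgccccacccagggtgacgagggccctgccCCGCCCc
Cd59a: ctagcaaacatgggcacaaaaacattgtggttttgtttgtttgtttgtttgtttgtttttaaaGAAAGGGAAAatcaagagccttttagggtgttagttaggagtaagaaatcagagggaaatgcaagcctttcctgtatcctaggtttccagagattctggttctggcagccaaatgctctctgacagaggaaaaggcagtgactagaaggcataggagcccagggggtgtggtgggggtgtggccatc
C3 holds 3 matches to the NF-kB letters and 1 to the C/EBP letters, Cd55 holds 1 NF-kB match and 2 GC boxes, and Cd59a holds 1 match to the interferon response letters. None of these matches overlap each other. Among 32851 promoters of the table, windows of the same length held the NF-kB letters in 17.6%, the C/EBP letters in 9.56%, the interferon response letters in 2.98% and the GC box in 32.7%. The STAT letters stood in 7.02% and the TATA letters in 12.4% of these windows and in none of the 3 shown. In C3 a match to the TATA letters lay just past the window shown, from base 15 after the annotated start. A match describes the letters and is no evidence of binding.

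The libraries held 28.7 M to 42.3 M counts each (M, mega), with a median of 33.5 M. Levels are in CPM, the count divided by the library total in M after scaling by edgeR's TMM method, and differences are log2 fold changes ± SE from edgeR's quasi-likelihood test over all genes tested. A gene is called where its p, adjusted by Benjamini and Hochberg's method, is under 0.05 and its log2 fold change is 1 or more in size. The cell type labels held against 10 mesothelial genes. These summed to between 8731 and 13660 CPM in mesothelial libraries and to between 2.42 and 714 CPM in fibroblast libraries. Among the fibroblast libraries omentum was highest. The sum of 8 fibroblast markers did not separate the labels over all libraries. It ran from 22620 to 29170 CPM in mesothelial and from 20980 to 176600 CPM in fibroblast libraries. Lymph node fibroblasts, at 20982 to 29008 CPM, did not lie above the mesothelial range. In the depots with both cell types, the fibroblast libraries lay above that range, at 32900 to 45860 CPM. Pancreatic acinar transcripts, at 8 genes, summed to 31950 and 108900 CPM in the pancreas libraries and to at least 1000 CPM in 6 others, all from omentum or mesentery, and these 8 libraries are called rich in acinar transcripts. Without them mesentery mesothelial cells keep only replicate 3 and omentum fibroblasts only replicate 2, while omentum mesothelial cells and mesentery fibroblasts each lose replicate 1.

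C3 and Serping1 were among the most abundant transcripts of these cells. Together the 9 genes took between 1.734% and 2.997% of all counts in mesothelial libraries and between 0.126% and 4.47% in fibroblast libraries, lowest in bone and highest in lymph node. Per kilobase of exon, C3 ranked between place 6 and place 1038 among all genes of a library and Serping1 between place 11 and place 135. In lymph node fibroblasts the mean levels per kilobase were 4712 CPM for C3, 2836 CPM for Serping1 and 988 CPM for C4b. Cd59a had the lowest median over libraries apart from Cfd, at 6.35 CPM per kilobase, with a mean of 2.09 CPM per kilobase in lymph node and 54.4 CPM per kilobase in bone fibroblasts. Cfd was close to absent, with 1029 counts over all 34 libraries.

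**Figure D1:**
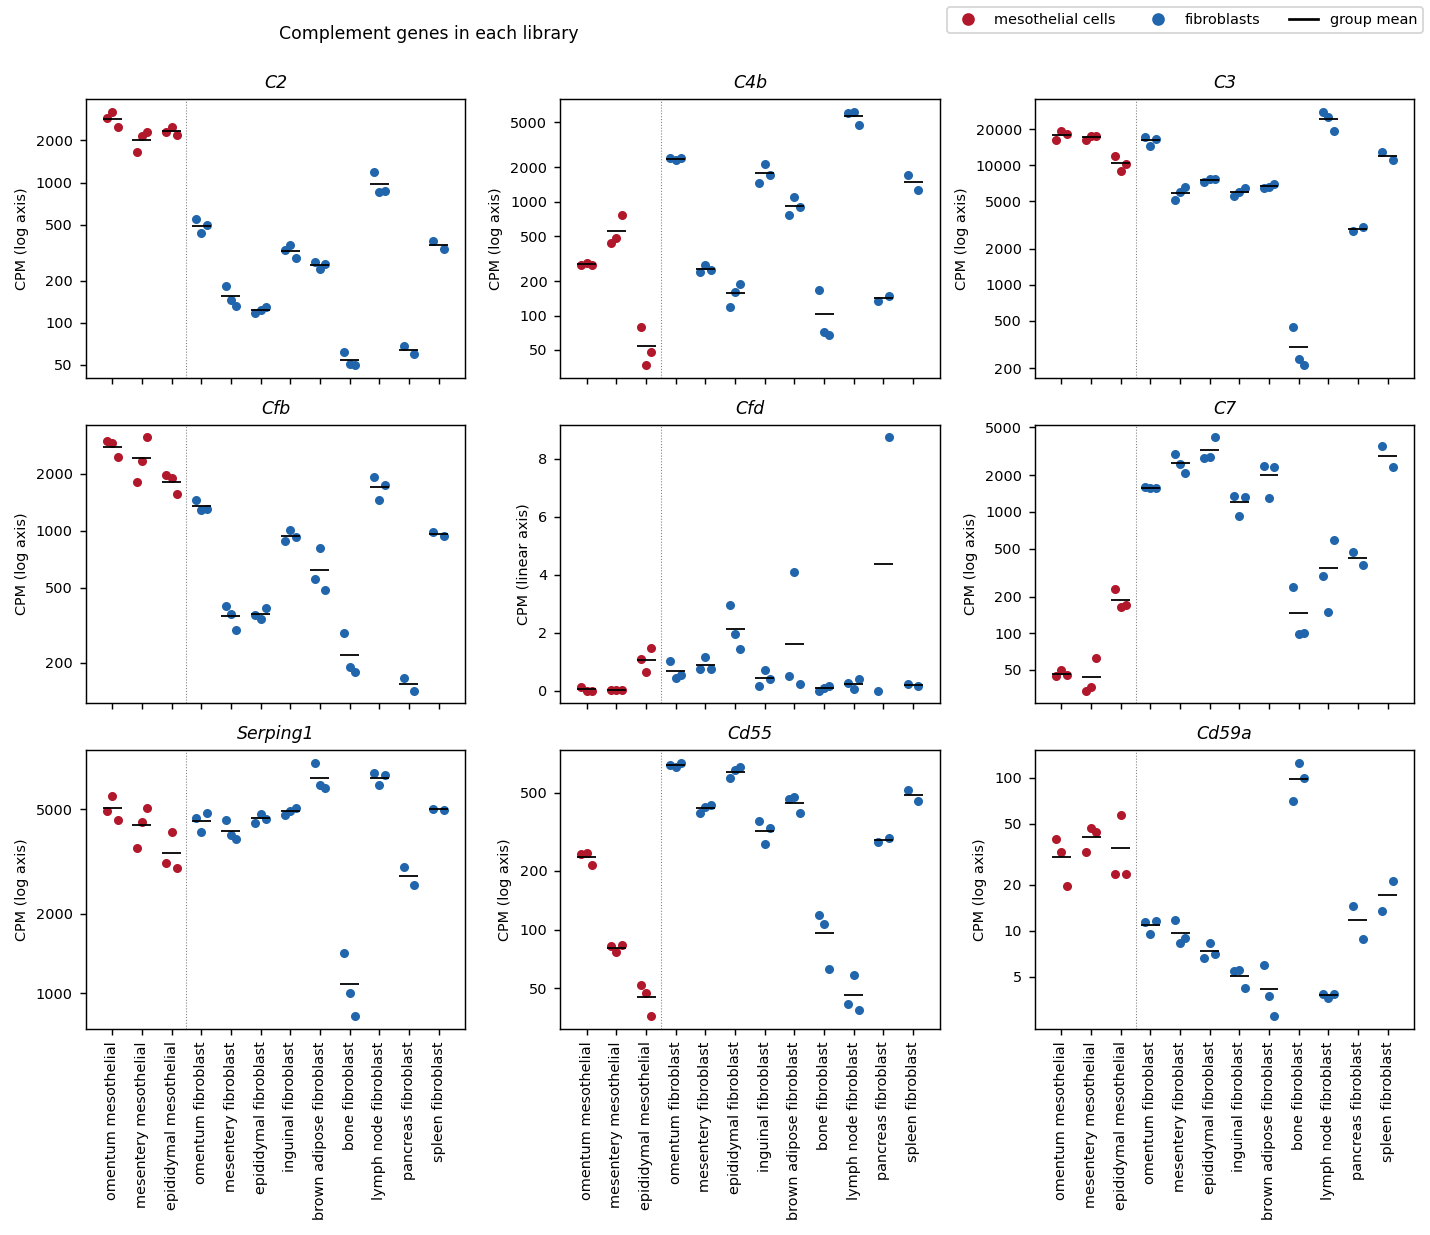
Level of each of the 9 complement genes in every library, in CPM on a log axis (linear for Cfd). Red points are mesothelial and blue points fibroblast libraries, bars are group means, and C2, Cfb and Cd59a lie higher and C7 and Cd55 lower in all mesothelial libraries than in the fibroblast libraries of the same 3 depots.

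Mesothelial cells were first set against fibroblasts of the same depots, which asks how the cell types of one tissue differ. Over the mean of the 3 depots they carried more C2, Cfb and Cd59a and less C7, Cd55, C4b and Cfd, while C3 and Serping1 were not called. In the mesentery alone C4b and C3 were called higher. In that mean 7 of 9 members were called, 3 higher and 4 lower in mesothelial cells, where 21.4% of all genes tested were called, 12.3% higher and 9.08% lower. Members had a median log2 fold change of -0.07, and all genes tested one of 0.11. By depot, 3 members were higher and 3 lower in omentum (8.10% and 8.79% of all genes), 5 higher and 3 lower in mesentery (10.8% and 7.53%), and 3 higher and 3 lower in epididymal fat (16.6% and 8.16%). Of the members, 3 lay above and 2 below in all 9 mesothelial against all 9 fibroblast libraries, as 10.2% of all genes did in either direction. In sorted bulk samples, fewer cells of a type and less RNA per cell cannot be told apart.

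The proteases that build the C3-cleaving enzymes both rose in mesothelial cells. C2 reached 2876, 3189 and 2468 CPM in omentum mesothelial cells, against 552, 434 and 494 CPM in omentum fibroblasts. In the mesentery it stood at 1642, 2144 and 2286 CPM in mesothelial cells, against 184, 145 and 133 CPM in fibroblasts, and in epididymal fat at 2295, 2479.7 and 2178 CPM in mesothelial cells, against 117, 124 and 129.8 CPM in fibroblasts. No mesothelial library came below 1642 CPM and no depot fibroblast library above 552 CPM. The rise in C2 was 2.53 ± 0.17 in omentum (adjusted p = 2.7e-13), 3.72 ± 0.18 in mesentery (adjusted p = 6.21e-17) and 4.23 ± 0.19 in epididymal fat (adjusted p = 3.61e-18, edgeR). It averaged 3.49 ± 0.10, a 9.32-fold ratio of mean levels. The depots differed in its size (range 1.70, adjusted p = 7.62e-06, edgeR), with the smallest rise in omentum, where the fibroblasts held most C2. Of the 9 members 5 were called in this test, where 10.9% of all genes were.

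Cfb, the counterpart of C2 in the alternative route, moved the same way by less. It reached 2964, 2921 and 2452 CPM in omentum mesothelial cells, against 1462, 1294 and 1301 CPM in omentum fibroblasts. In the mesentery the mesothelial cells held 1820.5, 2351 and 3114 CPM and the fibroblasts 402, 364 and 298 CPM, and in epididymal fat 1978, 1891 and 1560.0 CPM in mesothelial cells and 359, 342 and 389.7 CPM in fibroblasts. The mesothelial and fibroblast libraries did not overlap in any depot. Nor did those of 37.4% of all genes in omentum, 34.2% in mesentery and 42.7% in epididymal fat. The rise in Cfb was 2.04 ± 0.12 over the depots (adjusted p = 3.79e-16) and differed between them (range 1.74, adjusted p = 9.33e-05, edgeR). In omentum it was 1.04 ± 0.20 (adjusted p = 0.000122, edgeR), so near the required fold that 5 other settings and the loss of mesothelial replicate 1 or fibroblast replicate 2 ended the call, at 0.86 to 0.99. In the mesentery it was 2.78 ± 0.21 and in epididymal fat 2.32 ± 0.20.

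C4b, the protein that joins C2, did not follow it. It measured 278, 288 and 280.2 CPM in omentum mesothelial cells, against 2401, 2306 and 2407 CPM in omentum fibroblasts, a log2 fold change of -3.07 ± 0.29 (adjusted p = 6.33e-10, edgeR). In the mesentery the order was turned round, with 434, 482 and 761 CPM in mesothelial cells and 244, 281 and 252 CPM in fibroblasts, a rise of 1.11 ± 0.27 (adjusted p = 0.00212, edgeR). In epididymal fat the mesothelial cells held 79.2, 36.8 and 47.8 CPM and the fibroblasts 120.1, 160.4 and 189.7 CPM, a fall as in omentum (-1.52 ± 0.28, adjusted p = 5.36e-05, edgeR). The libraries of the cell types did not overlap in any of the 3 depots, and the direction depended on the depot. Within single depots 34.2% to 42.7% of all genes did not overlap either. C4b had the largest difference between depots of the 9 members (range 4.18, adjusted p = 1.99e-08, edgeR). The call in the mesentery was lost without mesothelial replicate 3, at 0.82 (adjusted p = 0.0349, edgeR).

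C3, the hub of the cascade, was abundant in both cell types. It stood at 16145, 19500.2 and 18242 CPM in omentum mesothelial cells, against 17354, 14592 and 16511 CPM in omentum fibroblasts, and these libraries overlapped. In the mesentery it was 16261, 17665 and 17616 CPM in mesothelial cells and 5143, 5965 and 6583 CPM in fibroblasts, and in epididymal fat 12012, 8982 and 10189 CPM in mesothelial cells and 7179.6, 7712 and 7636 CPM in fibroblasts. The epididymal mesothelial libraries lay above the fibroblast libraries without reaching the required fold change (0.47 ± 0.19). In that depot 42.7% of all genes did not overlap, in either direction. C3 was called higher in the mesentery alone of the 3 depots (1.54 ± 0.19, adjusted p = 9.97e-08, edgeR). The difference between depots was itself called (range 1.39, adjusted p = 0.00109, edgeR). With the libraries rich in acinar transcripts left out that difference was 1.11 and was no longer called. This setting leaves mesentery mesothelial replicate 3 and omentum fibroblast replicate 2 alone in their groups. Whether fewer libraries or the acinar transcripts ended the call was not tested.

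C7, of the membrane attack complex, showed the deepest fall of the members. It was 44.3, 49.5 and 45.4 CPM in omentum mesothelial cells, against 1603, 1561 and 1588 CPM in omentum fibroblasts. The mesentery gave 33.8, 36.2 and 62.5 CPM in mesothelial cells and 2972, 2491 and 2086 CPM in fibroblasts, and epididymal fat 231, 164 and 171 CPM in mesothelial cells and 2759, 2831 and 4104 CPM in fibroblasts. The lowest depot fibroblast library held 1561 CPM and the highest mesothelial library 231 CPM. The log2 fold change averaged -5.01 ± 0.24 (adjusted p = 7.57e-17, edgeR), 26.2-fold in mean levels. Its difference between depots narrowly missed the threshold (range 1.74, adjusted p = 0.0518, edgeR) and passed it under 5 of the other settings and without epididymal fibroblast replicate 3 or mesentery mesothelial replicate 3, with adjusted p between 1.38e-10 and 0.0498.

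The regulators split. Cd55 was 242, 247 and 213 CPM in omentum mesothelial cells, against 693, 672 and 709 CPM in omentum fibroblasts. It was 82.6, 76.9 and 83.3 CPM in mesentery mesothelial cells and 395, 420.3 and 435 CPM in the fibroblasts there, and 52.1, 47.7 and 36.1 CPM in epididymal mesothelial cells and 594, 652 and 674 CPM in epididymal fibroblasts. Every mesothelial library lay below every fibroblast library of these depots. The log2 fold change of Cd55 was -1.56 ± 0.18 in omentum, -2.37 ± 0.19 in mesentery and -3.82 ± 0.20 in epididymal fat, and it differed between depots (adjusted p = 4.92e-07, edgeR). Cd59a, the other surface regulator, was the reverse, with 39.5, 32.6 and 19.6 CPM in omentum, 32.8, 46.9 and 44.3 CPM in mesentery and 23.5, 57.5 and 23.7 CPM in epididymal mesothelial cells. The fibroblasts held 11.5, 9.53 and 11.5 CPM in omentum, 11.8, 8.35 and 8.95 CPM in mesentery and 6.62, 8.29 and 7.05 CPM in epididymal fat, all below the mesothelial libraries. Cd59a rose by 1.94 ± 0.18 over the depots (adjusted p = 6.62e-11, edgeR), and a difference between depots was not called (range 0.76, adjusted p = 0.389, edgeR).

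Serping1, the soluble inhibitor, ran from 2975 to 5626 CPM with a mean of 4261 CPM in the 9 mesothelial libraries, and from 3835 to 4816 CPM with a mean of 4416 CPM in the 9 depot fibroblast libraries. The log2 fold change was -0.07 ± 0.10 (adjusted p = 0.645, edgeR), and these libraries overlapped. In epididymal fat alone all 3 mesothelial libraries lay below the fibroblast libraries, at -0.44 ± 0.17, under the required size. There 42.7% of all genes did not overlap, in either direction. Cfd held 4, 0 and 0 counts in omentum, 1, 1 and 1 in mesentery and 38, 20 and 64 in epididymal mesothelial libraries. The fibroblasts held 41, 17 and 18 counts in omentum, 31, 39 and 25 in mesentery and 83, 66 and 47 in epididymal fat. Cfd was called lower in mesothelial cells over the mean of the depots (adjusted p = 0.00107, edgeR) and in the mesentery, where leaving out any 1 of the mesothelial libraries, fibroblast replicate 2 or the libraries rich in acinar transcripts ended the call. Its fitted fold changes rest on these few counts and on the prior count, so no fold is given.

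**Figure D2:**
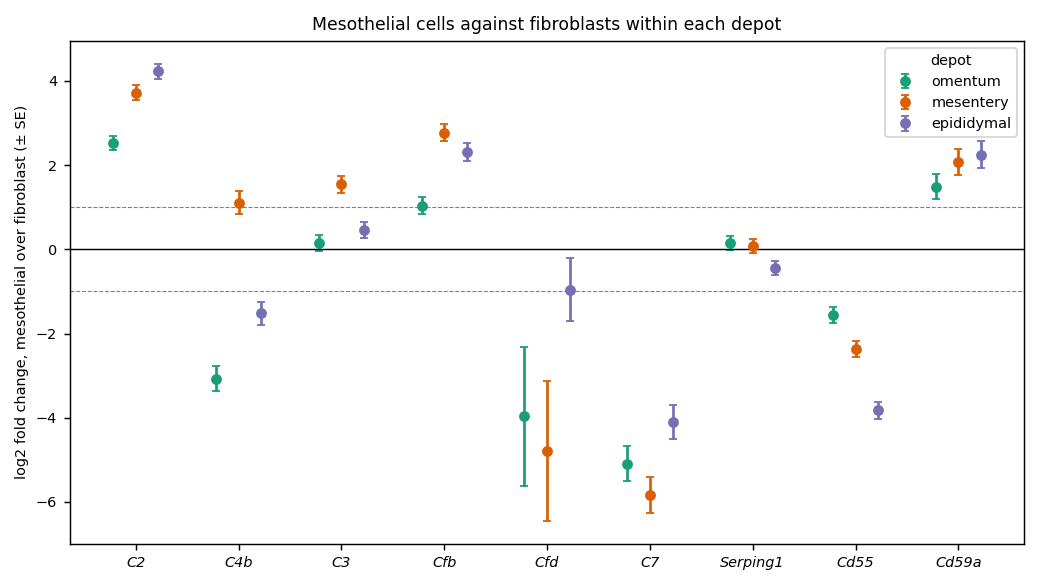
Log2 fold change of the 9 genes, mesothelial cells over fibroblasts (points, with bars of ± 1 SE), in omentum, mesentery and epididymal fat, with dashed lines at the fold change required for a call. C2, Cfb and Cd59a lie above 0 and C7 and Cd55 below 0 in all 3 depots, C4b changes side, and Cfd has the widest bars because its counts are few.

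Markers of other cells moved in part with these contrasts. The 10 mesothelial markers, all with counts, summed to between 480 and 714 CPM in omentum fibroblasts, against 81.9 to 178 CPM in mesentery and epididymal fibroblasts. The 10 macrophage markers, all detected in all 6 groups, summed to between 53.9 and 134 CPM in mesothelial and between 11.3 and 143 CPM in depot fibroblast libraries. The 8 lymphocyte markers summed to between 1.44 and 18.4 CPM in mesothelial libraries and to between 0.924 and 251 CPM in depot fibroblast libraries, highest in omentum. The 8 adipocyte markers summed to between 0.791 and 16.4 CPM in mesothelial and between 66.7 and 208 CPM in depot fibroblast libraries, all detected but for Cidec in omentum mesothelial cells, and the 5 Schwann cell markers to between 62.0 and 135 CPM in mesothelial and between 6.24 and 34.1 CPM in depot fibroblast libraries. The 8 endothelial markers summed to between 46.2 and 134 CPM in mesothelial and between 77.6 and 503 CPM in depot fibroblast libraries, and the 6 mural markers, of cells around vessels, to between 205 and 665 CPM in mesothelial and between 62.2 and 261 CPM in depot fibroblast libraries, with none at 0. Several sums came mostly from a single gene. Tek averaged 380 CPM in epididymal fibroblasts. Kdr and Cdh5 of the same list were highest in mesothelial cells, at 79.2 CPM in mesentery and 6.55 CPM in epididymal fat. Csf1r averaged 95.6 CPM in mesentery mesothelial cells, where Mpeg1 was at its lowest, at 0.191 CPM. Jchain averaged 165 CPM in omentum fibroblasts and Mbp 112 CPM in epididymal mesothelial cells. The part of these 7 lists in the result was not tested.

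Mesothelial cells were next compared between depots. C2, Cfb, C3, Serping1 and Cd59a were not called there, while C4b, Cfd, C7 and Cd55 were called across the 3 depots, 4 of 9 members where 12.3% of all genes were called. Mean C3 was 1.73-fold higher in omentum and 1.65-fold higher in mesentery than in epididymal fat, under the required size. Its libraries did not overlap in either pair, nor did those of 28.6% and 20.5% of all genes. C4b was 2.37 ± 0.28 higher in omentum than in epididymal mesothelial cells (adjusted p = 4.19e-07) and 3.36 ± 0.30 higher in mesentery than in epididymal ones (adjusted p = 1.99e-09, edgeR). Cd55 was higher in omentum than in mesentery by 1.53 ± 0.18 (adjusted p = 7.56e-07) and than in epididymal fat by 2.37 ± 0.19 (adjusted p = 1.36e-10, edgeR). C7 was lower in omentum than in epididymal fat (-2.02 ± 0.37, adjusted p = 0.000308) and lower in mesentery than in epididymal fat (-2.10 ± 0.37, adjusted p = 0.000362, edgeR). With the libraries rich in acinar transcripts left out, which leaves mesentery replicate 3 alone in its group, the last of these was -1.59 and was not called. Cfd was called lower in omentum and in mesentery than in epididymal fat, on 4 and 3 counts in all against 122, and either call was lost without epididymal replicate 1 or 3 or any 1 library of the other depot. In pairs of depots, 1 of 9 members was called, and higher, in omentum over mesentery, where 5.15% of all genes were called, 2.36% higher and 2.79% lower. Without mesentery replicate 1 or 2 C4b was also called there, lower in omentum, at -1.10 and -1.08. In omentum over epididymal fat 2 were higher and 2 lower, where 10.4% of genes were called, 3.55% higher and 6.83% lower. In mesentery over epididymal fat 1 was higher and 2 lower, where 4.18% of genes were called, 1.98% higher and 2.21% lower.

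Across the fibroblasts of 9 tissues all 9 members were called, where 44.0% of all genes were, and the median range of group effects was 4.46 over the members and 1.82 over all genes tested. C3 had the widest range, 80.9-fold between mean levels of 24236 CPM in lymph node and 299 CPM in bone. C4b spanned 54.9-fold, Cd59a 26.1-fold, C2 17.9-fold, Cd55 14.9-fold and Serping1 6.11-fold. Each tissue was then set against the mean of the other 8, comparisons that share their libraries. That mean is taken on the log2 scale, where a tissue of very low level weighs more than in a mean of CPM. In mean CPM, C4b in spleen was 1.05 times, C4b in inguinal fat 1.28 times and C7 in brown adipose tissue 1.30 times the other 8, all called higher. Cd59a in inguinal fat, called lower, was 0.248 times the other 8.

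Bone fibroblasts held the least complement transcript. Of the 9 members 8 were called lower and 1 higher, where 19.5% of all genes were called in bone, 6.65% lower and 12.8% higher. C3 was 445, 241 and 213 CPM in bone, while the lowest of the 22 other fibroblast libraries held 2832 CPM and their highest 27914 CPM. Serping1 was 1419.7, 1000.1 and 817 CPM in bone, against 2578 to 7486 CPM elsewhere. These 2 genes lay below and Cd59a above every other fibroblast library, as 10.1% of all genes did in either direction, with log2 fold changes of -4.80 ± 0.21 for C3 (adjusted p = 2.79e-19) and -2.13 ± 0.15 for Serping1 (adjusted p = 2.3e-13, edgeR). C4b was 168, 72.0 and 68.0 CPM (-2.98 ± 0.26), C2 61.8, 50.7 and 49.9 CPM (-2.23 ± 0.15) and C7 239.9, 99.3 and 102 CPM (-3.23 ± 0.34) in bone. Cfb at 288, 189 and 179.9 CPM (-1.53 ± 0.17) and Cd55 at 119, 106 and 62.8 CPM (-1.82 ± 0.16) were also called lower. In bone C4b, C2 and C7 overlapped libraries of other tissues, while Cfb lay above the pancreas and Cd55 above the lymph node libraries. Cd59a was the 1 member called higher, at 70.1, 125 and 100.2 CPM in bone, against 2.76 to 21.1 CPM in all other fibroblast libraries (3.67 ± 0.18, adjusted p = 7.15e-18, edgeR). The lower call of Cfd in bone rests on 0, 2 and 4 counts and was lost without any 1 of its 3 libraries or of 9 libraries of other tissues. It was lost too under the replicate block (adjusted p = 0.0553), with only the groups compared (adjusted p = 0.118) and with the libraries rich in acinar transcripts left out (adjusted p = 0.0681, edgeR). In bone the 8 fibroblast markers, collagen genes among them, summed to between 117144 and 176630 CPM, against 20980 to 76230 CPM in other fibroblasts, and the 8 adipocyte markers to between 3354 and 4070 CPM, mostly from Car3, against 8.33 to 288 CPM. Their part in the result was not tested.

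Lymph node fibroblasts were the opposite of bone for most members. C2, C4b, C3 and Cfb were called higher and C7, Cd55 and Cd59a lower, 4 and 3 of 9, where 16.4% of all genes were called, 9.32% higher and 7.13% lower. C4b was 5979, 6149 and 4756 CPM in lymph node, against at most 2407 CPM in any other fibroblast library (3.52 ± 0.16, adjusted p = 3.07e-18, edgeR). C3 was 27914, 25531 and 19262 CPM, against at most 17354 CPM elsewhere (2.33 ± 0.12), and C2 was 1182, 856 and 867 CPM, against at most 552 CPM elsewhere (2.45 ± 0.10). These 3 genes stood above every other fibroblast library and Cd55 below, as 7.68% of all genes did in either direction. Cfb at 1915, 1460.2 and 1744 CPM (1.80 ± 0.13) overlapped the omentum by a single library. Cd55 was 41.7, 58.8 and 38.8 CPM, below the 62.8 CPM of the lowest other fibroblast library (-2.99 ± 0.17, adjusted p = 1.42e-15, edgeR). Cd59a was 3.84, 3.61 and 3.88 CPM (-1.62 ± 0.28) and C7 298, 149 and 587 CPM (-1.85 ± 0.31). Serping1, at 6875, 6185 and 6718 CPM, had a log2 fold change of 0.80 ± 0.12, under the required size. The 10 mesothelial markers summed to at most 5.75 CPM in lymph node fibroblasts, with Msln, Upk1b, Krt8, Krt18 and Muc16 at 0. The 6 mural markers, all detected, summed to between 972 and 1348 CPM in lymph node, against 13.6 to 261 CPM in all other fibroblast libraries, and their part in the result was not tested.

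Omentum fibroblasts held more of 5 members, where 7.64% of all genes were higher and 2.38% lower. C4b was 2.12 ± 0.17 higher (adjusted p = 1.82e-11), C3 1.67 ± 0.13 (adjusted p = 1.95e-12) and Cfb 1.42 ± 0.13 (adjusted p = 2.42e-10, edgeR). C2 was 1.35 ± 0.11 and Cd55 1.39 ± 0.12 higher. No member stood apart from all other fibroblast libraries, since lymph node exceeded omentum for the first 4 and epididymal fat reached it for Cd55. With the libraries rich in acinar transcripts left out the value for C2 was 0.96, under the required size. In omentum fibroblasts the lymphocyte markers summed to between 142 and 251 CPM, against at most 35.3 CPM in the other fibroblasts, and the mesothelial markers to between 480 and 714 CPM, against at most 221 CPM. All 8 and all 10 of these were detected in omentum. Jchain held most of the lymphocyte sum there, at a mean of 165 CPM, while Cd3e, Cd3d and Cd3g were highest in pancreas fibroblasts. The part of both lists in the result was not tested.

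Pancreas fibroblasts held less of 5 members and more Cfd, where 2.31% of all genes were lower and 8.65% higher. C4b was 135 and 149 CPM (-2.45 ± 0.30), Cfb 167 and 143 CPM (-2.09 ± 0.21) and C2 68.5 and 59.4 CPM (-1.96 ± 0.18) in the 2 pancreas libraries. C7 at 469 and 367 CPM (-1.53 ± 0.36) and C3 at 2832 and 3018 CPM (-1.11 ± 0.19) were also lower, and the call of C7 was lost without replicate 2 (-1.37, adjusted p = 0.103, edgeR). Cfb lay below every other fibroblast library, as 1 of the 4.32% of genes whose pancreas libraries did not overlap the rest. The higher call of Cfd came from replicate 2, which held 280 counts while replicate 1 held 0, and without replicate 2 the fitted log2 fold change was -7.05 with an adjusted p of 0.145 (edgeR). The pancreas libraries carry the acinar transcripts given above, whose part in these values was not tested.

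The other 5 tissues differed in fewer members. Spleen fibroblasts held more C7 at 3489 and 2338 CPM (1.62 ± 0.27), C4b at 1724 and 1260.3 CPM (1.36 ± 0.21) and C3 at 12907 and 11036 CPM (1.18 ± 0.15), 3 of 9 where 3.88% of all genes were called and 3.47% were higher. With library totals in place of TMM, which moved the median of all genes in spleen by 0.21, 7 members were called there. Without spleen replicate 1 the rise in C7 was 1.30 with an adjusted p of 0.0811 (edgeR). Epididymal fibroblasts held the most C7 (1.79 ± 0.23), more Cd55 (1.26 ± 0.12) and less C4b (-2.29 ± 0.25), and Cfd was called higher there on 196 counts in all, 3 members higher and 1 lower where 4.43% of all genes were called, 2.50% higher and 1.93% lower. Leaving out epididymal replicate 1 or 2, using only the groups compared or using DESeq2 ended the Cfd call. Mesentery fibroblasts held more C7 (1.38 ± 0.24) and less C4b (-1.48 ± 0.23), where 3.50% of genes were called, 2.19% higher and 1.31% lower. With the libraries rich in acinar transcripts left out the rise in C7 was 1.08 with an adjusted p of 0.0764 (edgeR). Inguinal fibroblasts held more C4b (1.64 ± 0.18) and less Cd59a (-1.14 ± 0.26), where 6.30% of genes were called, 3.35% higher and 2.96% lower. Brown adipose fibroblasts held less Cd59a at 5.95, 3.76 and 2.76 CPM (-1.46 ± 0.27). Their C7, at 2375, 1314 and 2322 CPM, was called at 1.01 ± 0.24, and 7 other settings ended that call, with log2 fold changes down to 0.85. It was also lost, at values down to 0.87, without brown adipose replicate 1 or 3, bone replicate 2 or 3, epididymal replicate 1 or 2, lymph node replicate 1 or 2, inguinal replicate 2, mesentery replicate 3, pancreas replicate 2 or spleen replicate 2. In brown adipose tissue 6.41% of genes were called, 3.66% higher and 2.75% lower.

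**Figure D3:**
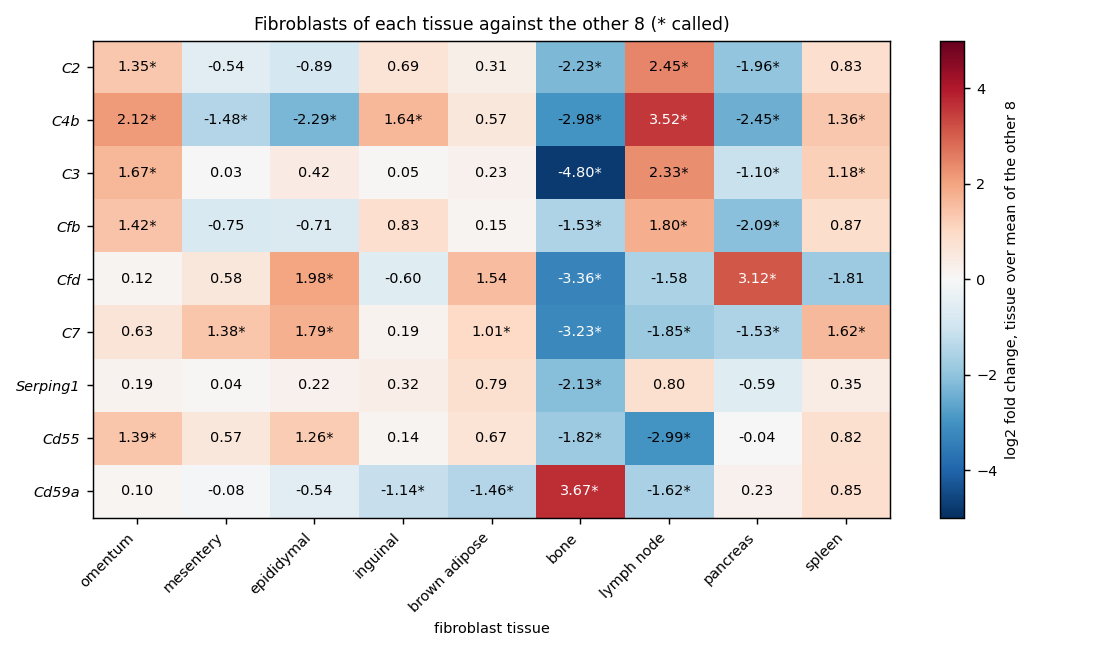
Log2 fold change of the 9 genes in the fibroblasts of each tissue over the mean of the other 8 tissues, as colour and number, with an asterisk on called values. Bone is below 0 for 8 genes and above 0 for Cd59a, and lymph node shows the largest rise of C4b, at 3.52; the Cfd values rest on few counts.

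Visceral fat fibroblasts, from omentum, mesentery and epididymal fat, were compared with subcutaneous ones from inguinal fat and brown adipose tissue. C4b was lower in visceral fat (-1.48 ± 0.17, adjusted p = 5.74e-08, edgeR), the 1 member called where 8.23% of all genes were called and 3.94% were lower. The groups overlapped, because omentum held 2401, 2306 and 2407 CPM, above the 765 to 2157 CPM of subcutaneous libraries, while mesentery and epididymal libraries held at most 281 CPM. Cd59a ran from 6.62 to 11.8 CPM in visceral and from 2.76 to 5.95 CPM in subcutaneous libraries without overlap, as 3.90% of all genes did. Its log2 fold change lay just under the required size of 1 (adjusted p = 0.000764, edgeR), and it was called under 6 other settings, at 1.01 to 1.16, and without omentum replicate 2, mesentery replicate 2 or 3, epididymal replicate 1 or 3, inguinal replicate 1 or 2 or brown adipose replicate 1. The mesothelial markers summed to between 81.9 and 714 CPM in visceral and to between 9.35 and 16.2 CPM in subcutaneous libraries, with Upk1b at 0 in both subcutaneous groups, and Cd59a was itself higher in mesothelial cells. The mural markers summed to between 62.2 and 261 CPM in visceral and to between 13.6 and 54.9 CPM in subcutaneous libraries, and the part of either list in the result was not tested.

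The order of the 12 groups by mean level was firm at a few places. For C2 the order ran from omentum over epididymal to mesentery mesothelial cells, then lymph node, omentum, spleen, inguinal, brown adipose, mesentery, epididymal, pancreas and bone fibroblasts. Of its 11 pairs of neighbours in that order 4 overlapped, among them both mesothelial pairs and pancreas with bone. Overlapping neighbours numbered 5 of 11 for C4b, 6 for C3, Cfb and Cd55, 8 for C7 and Cd59a, 9 for Serping1 and all 11 for Cfd. Lymph node led for C3, C4b and Serping1, omentum mesothelial cells for C2 and Cfb, epididymal fibroblasts for C7, omentum fibroblasts for Cd55 and bone for Cd59a. The groups at the low end were bone for C2, C3 and Serping1, epididymal mesothelial cells for C4b and Cd55, mesentery mesothelial cells for C7, pancreas for Cfb and lymph node for Cd59a.

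C2 and Cfb tracked each other over the 12 groups. Among 9960 genes with a symbol and a mean of at least 5 CPM, each was the gene most like the other, with a Pearson r of 0.97 between group means of log2(CPM + 0.5). The next most alike were Ctps and Igtp for C2 (r of 0.97 and 0.96) and Igtp and Ifi47 for Cfb (r of 0.96 and 0.95). The pair did not move in equal steps: per kilobase of exon the ratio of C2 to Cfb lay between 0.536 and 1.02 in mesothelial libraries, with a median of 0.735, and between 0.157 and 0.450 in fibroblast libraries, with a median of 0.276. For the other members the most alike genes were Cxcl13, Pyroxd2 and Tubgcp4 for C4b (r of 0.87 to 0.89), Ddx60, Sp110 and Parp14 for C3 (0.95 to 0.96), and Lysmd2 and Sfrp1 for C7 (0.93 to 0.94). C1ra, Sp140 and Ces2g were most alike to Serping1 (0.94 to 0.95), Isca1, Hibadh and Hebp1 to Cd55 (0.93 to 0.94) and Col8a2, Shroom2 and Ica1 to Cd59a (0.95), while Trak1, Slc37a4 and Paqr4 came nearest to Cfd (0.82 to 0.89). These values describe 12 group means that share libraries and depth. Among the members, r was 0.88 between C3 and Serping1 and 0.73 between C7 and Cd55, and lowest, at -0.74, between Serping1 and Cd59a.

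**Figure D4:**
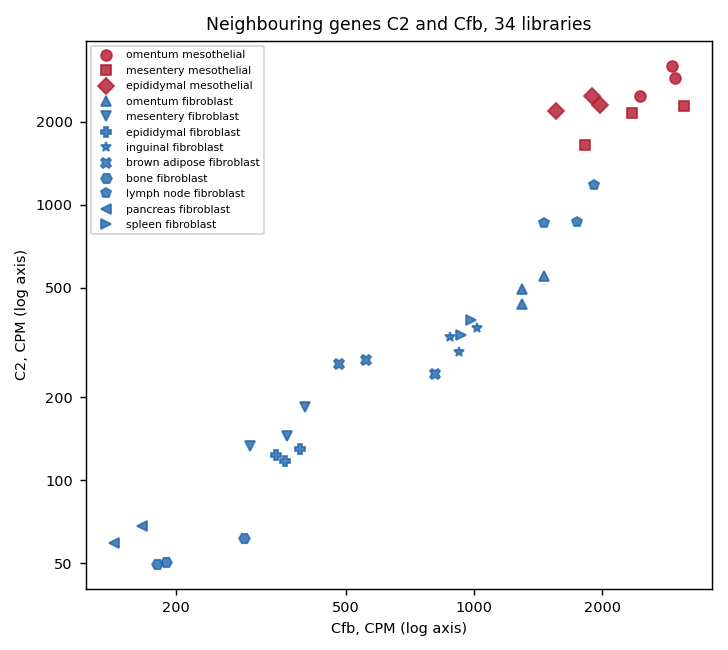
C2 against Cfb in each of the 34 libraries, in CPM on log axes, red for mesothelial and blue for fibroblast libraries with a symbol per tissue. The libraries lie along 1 rising band, from bone and pancreas fibroblasts at the low end to mesothelial cells at the high end, where C2 is higher for a given Cfb.

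Of 45 other complement genes, chosen by their place in the pathway, 40 could be tested. In mesothelial cells over fibroblasts of the same depots 5 of the 40 were called higher and 2 lower, where 12.3% of all genes were higher and 9.08% lower, and their median log2 fold change was -0.19, against 0.11 over all genes tested. Clu, which encodes clusterin, an inhibitor of the terminal pathway, rose most among well-counted genes (4.51 ± 0.23, adjusted p = 1.77e-16, edgeR), with means of 2982 ± 475, 3079 ± 521 and 4302 ± 669 CPM in omentum, mesentery and epididymal mesothelial cells. The fibroblasts of these depots averaged 613 ± 191, 130.3 ± 27.5 and 41.7 ± 8.53 CPM (SD, n = 3 each). Vtn, for vitronectin, another terminal inhibitor, fell (-5.97 ± 0.35, adjusted p = 2.88e-14, edgeR), to means of at most 2.86 CPM in mesothelial cells, against 24.1 to 134 CPM in depot fibroblasts. Cd59b, the copy of Cd59a, was higher too (1.72 ± 0.24, adjusted p = 4.71e-07, edgeR) and Csmd1, a membrane regulator, lower (-1.02 ± 0.29). The other 3 calls, Cpn1, C9 and Masp2, are named for completeness, outside the rule for named genes and after their values were seen, and were on means of at most 1.29 CPM in these 6 groups. The proteases of the C1 complex, C1ra and C1s1, were abundant in both cell types and not called, with log2 fold changes of 0.01 ± 0.12 and -0.69 ± 0.10. C1rb, C1s2, C4a, Fcna, Colec11, Cfp, Cr1l and C3ar1 were not called either.

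Across fibroblasts of 9 tissues 29 of the 40 genes were called, where 44.0% of all genes were. In lymph node 12 were higher and 4 lower, where 9.32% of all genes were higher and 7.13% lower, with a median of 0.08. Clu reached 13855 ± 1597 CPM there (6.16 ± 0.20, adjusted p = 7.93e-21, edgeR) and Vtn 1132 ± 273 CPM (4.29 ± 0.25). The second copies of the C1 proteases rose, C1rb to 100.2 ± 37.7 CPM (4.70 ± 0.15) and C1s2 to 34.9 ± 11.6 CPM (4.54 ± 0.20), as did the lectin Colec11, to 44.7 ± 5.22 CPM (5.49 ± 0.16), and Csmd1, to 60.2 ± 5.05 CPM (5.66 ± 0.19, SD, n = 3 each). C1s1 at 4928 ± 754 CPM (1.18 ± 0.12) and C4a at 4.56 ± 0.789 CPM (2.84 ± 0.24) were also higher, and C3ar1 was lower.

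In bone 7 of the 40 were higher and 7 lower, where 12.8% of all genes were higher and 6.65% lower, with a median of -0.65. All 4 C1 protease genes fell, among them C1ra to 216 ± 59.9 CPM (-2.62 ± 0.19) and C1s1 to 383 ± 129.8 CPM (-2.96 ± 0.17), against at least 814 CPM of C1ra and 1779.9 CPM of C1s1 in the means of other fibroblasts. Colec11 and Vtn fell there (-3.17 ± 0.42 and -2.70 ± 0.41). Among the rises in bone was Itgb2, named after its values were seen, which encodes a subunit of complement receptors, at a mean of 7.36 CPM. In bone the macrophage markers summed to between 43.8 and 82 CPM. The other fibroblast libraries ran from 10.1 to 193 CPM with a median of 20.6 CPM, and the part of these markers in the rises was not tested.

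In omentum 15 of the 40 were higher and 1, Vtn, lower, where 7.64% of all genes were higher and 2.38% lower, with a median of 0.75. Among the higher ones were Fcna, a ficolin gene, at 12.5 ± 2.91 CPM (adjusted p = 5.56e-12, edgeR), Cfp, which encodes properdin, at 11.1 ± 1.51 CPM (2.09 ± 0.34), and the receptor gene C3ar1 at 4.82 ± 0.416 CPM (3.52 ± 0.45, SD, n = 3 each). The macrophage markers summed to between 110 and 143 CPM in omentum fibroblasts, and to between 10.1 and 193 CPM with a median of 20.6 CPM in the other fibroblast libraries, with all 10 detected, and their part in these rises was not tested.

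**Figure D5:**
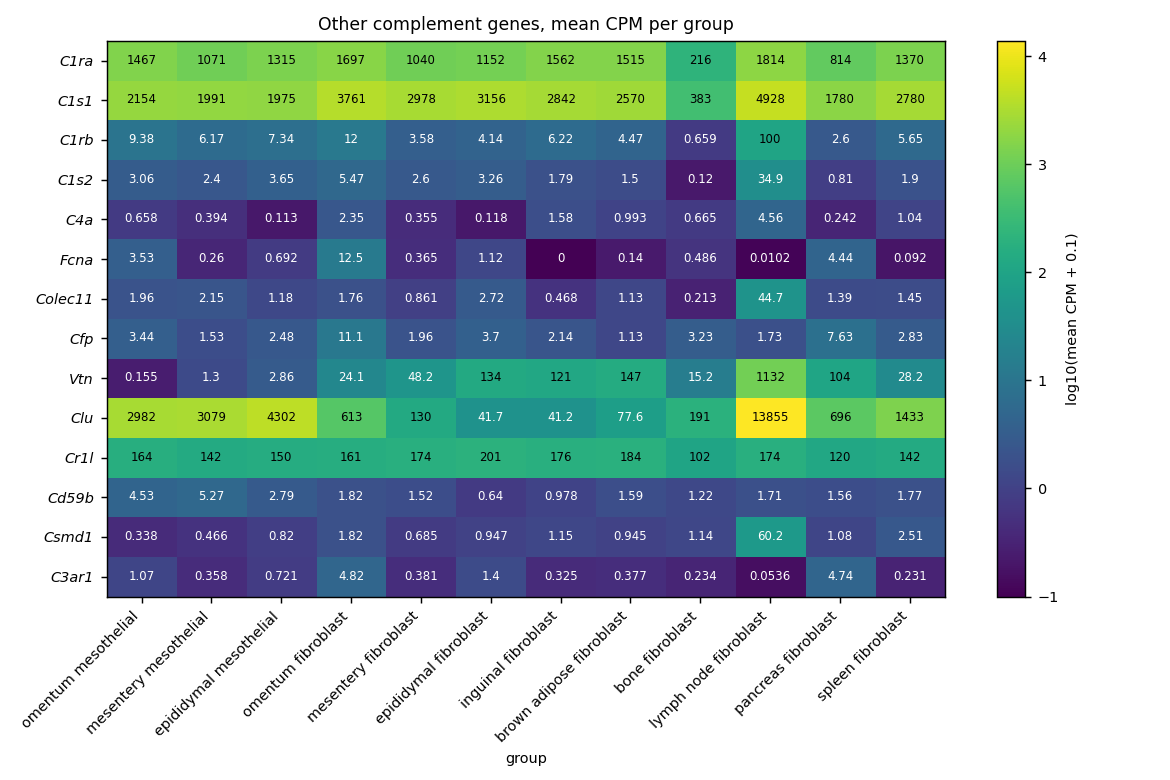
Mean level of 14 other complement genes in the 12 groups, in CPM as number and as colour on a log scale. Clu is high in mesothelial cells and highest in lymph node fibroblasts at 13855 CPM, and C1ra and C1s1 are lowest in bone.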

How the data were processed

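RNA of 34 sorted stromal cell libraries in 12 groups was analysed from counts per gene that the authors deposited. Per the file headers, each count is the number of reads aligned uniquely to a gene model, and the submitters' processing notes name Salmon and build GRCm38, while the way the tool and the unique alignment were combined is not given in the sources used here. Reads shared with a near-identical copy would be lost or split under such counting, and strand use is not given in the sources used here.

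Gene positions and exon lengths came from GENCODE M21, and 51633 of 51826 identifiers had a symbol there. One edgeR 4.0.16 quasi-likelihood model (R 4.3.3, TMM, a mean per group, robust) was fitted to all 34 libraries over the 25705 genes that passed filterByExpr with a minimum count of 10, and p-values were adjusted over all of them. Tests over several groups report the range of group effects as a log2 difference. Alternatives were DESeq2 1.42.0, other scalings, no filter, only the groups compared, summed copies, a replicate block, libraries left out one at a time, and the libraries of at least 1000 acinar CPM left out, the last chosen after seeing the data for the comparisons across fibroblast tissues. The fit was tested on simulated counts.

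Other complement genes are named where their mean is at least 1 CPM and they are among the 12 of smallest p in the mesothelial comparison or across fibroblast tissues. Some genes that the rules for named genes select are not reported here. The members, gene lists and tests were chosen with earlier results of these data known. Intervals and p-values cover counts of reads without molecular identifiers.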

Additional observations from a re-analysis of the deposited data

Results flagged for a closer look

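The difference between mesothelial cells and fibroblasts varied among omentum, mesentery and epididymal fat for 5 of the 9 members and for 3 of the other complement genes named, each by edgeR's test of that difference with Benjamini-Hochberg adjustment. C2 was higher in mesothelial cells by 2.53 in omentum, 3.72 in mesentery and 4.23 in epididymal fat on the log2 scale (adjusted p = 7.62e-06). Cfb was higher by 1.04, 2.78 and 2.32 in the same order of depots (adjusted p = 9.33e-05), and C3 by 0.15, 1.54 and 0.47 (adjusted p = 0.00109). C4b changed direction, at -3.07 in omentum, 1.11 in mesentery and -1.52 in epididymal fat (adjusted p = 1.99e-08). Cd55 was lower in all 3 depots, at -1.56, -2.37 and -3.82 (adjusted p = 4.92e-07). Among the other genes, Clu had the largest rise in epididymal fat, at 6.69, against 2.28 in omentum and 4.56 in mesentery (adjusted p = 1.28e-06). Colec11 was called higher in mesentery, at 1.33, and lower in epididymal fat, at -1.21 (adjusted p = 0.00117). C1rb narrowly passed the test of the difference (adjusted p = 0.0463), with a range of 1.17 between depots.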

How the results depend on the processing

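Of 180 results, each a member in a comparison, 94 were called and 78 of these kept their call under every alternative run for them, single libraries left out included. The alternatives kept the side of the threshold of 174 results with DESeq2, 177 with RLE size factors, 171 with library totals, 172 without the filter, 171 with only the groups compared and all 180 with copies summed. Summing the copies could not restore reads that the counting may have dropped between them. Library totals moved the median of all genes by more than 0.1 in 8 comparisons, from -0.29 in omentum over epididymal mesothelial cells to 0.21 in spleen. Counts of called members moved most, in ratio to the count, in 5 comparisons, and by at most 2 members in the others. Omentum over mesentery mesothelial cells had 2 with library totals, against 1. Mesentery over epididymal mesothelial cells had fewer than its 3 with the acinar-rich libraries left out, where mesentery replicate 3 remained alone in its group. Visceral over subcutaneous fat had 2 with RLE, library totals, no filter, the replicate block, only the groups compared and DESeq2, against 1. Brown adipose tissue had 1 with RLE, library totals, the replicate block, only the groups compared and DESeq2, against 2. Spleen had 7 with library totals, against 3. With single libraries left out the counts were 1 to 2 in omentum over mesentery mesothelial cells, 1 to 2 in visceral over subcutaneous fat and 1 to 3 in brown adipose tissue. Cfd in pancreas was -7.05 without replicate 2 and 4.16 without replicate 1. Replicate numbers did not pair the libraries in every depot. Same-numbered mesothelial and fibroblast libraries of a depot correlated between -0.518 and 0.43 in their deviations. Of 18 libraries 7 correlated best with their own number, 5 in epididymal fat, 2 in omentum and 0 in mesentery, each with 3 libraries to choose among. Over pairs from different groups of the whole series, the median r was 0.025 for the same number and -0.005 for other numbers. A replicate block changed 4 of the 180 calls and non-calls, 2 in each direction. The causes of these changes were not tested. Leaving out the acinar libraries was not possible for pancreas, where no library remains. Depth limits Cfd, whose 1029 counts in all 34 libraries leave its calls to a few reads.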

Other observations

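Among the 40 other complement genes tested, 8 were called higher and 5 lower in visceral than in subcutaneous fat fibroblasts, where 4.29% of all genes were higher and 3.94% lower. Clu was 1.40 ± 0.23 higher in visceral fat (adjusted p = 3.89e-05, edgeR), with means of 613 CPM in omentum, 130.3 CPM in mesentery and 41.7 CPM in epididymal fat, against 41.2 CPM in inguinal fat and 77.6 CPM in brown adipose tissue. Clu was also higher in mesothelial cells, and the 10 mesothelial markers summed to between 81.9 and 714 CPM in visceral and between 9.35 and 16.2 CPM in subcutaneous fibroblast libraries, whose part in the value was not tested. Vtn was lower in visceral fat (-1.31 ± 0.28, adjusted p = 0.000984, edgeR), though epididymal fat at 134 CPM lay between inguinal fat at 121 CPM and brown adipose tissue at 147 CPM.

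In pancreas fibroblasts 13 of these 40 genes were higher and 3 lower than in the other 8 tissues, where 8.65% of all genes were higher and 2.31% lower. C3ar1, the receptor for the C3a fragment, averaged 4.74 CPM in pancreas and 4.82 CPM in omentum fibroblasts, against at most 1.40 CPM in the other fibroblast groups. The 10 macrophage markers summed to 11.4 and 193 CPM in the pancreas libraries, and the part of these or of the acinar transcripts in the values was not tested.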
